A study of Mus musculus with 9 samples.

Results

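The zinc, iron, copper and magnesium transporters described here were the 34 genes of a mouse count table of 21253 genes whose symbols begin with Slc39a, Slc30a, Slc11a, Slc40a, Slc31a or Slc41a, or are Atp7a or Atp7b. They were 14 Slc39a genes, 10 Slc30a genes, 3 iron transporters, 4 copper transporters and 3 Slc41a magnesium transporters, a rule on symbols alone that was written with earlier results of these data known. RNA had been sequenced from AKP tumour organoids, cultures grown from mouse tumour cells, in 3 groups of 3 samples. In control organoids doxycycline was kept in the medium and Apc was switched off. In the 2-day organoids doxycycline had been withdrawn for 2 days, and in the 7-day organoids for 7 days, which restored Apc and was used by the study to induce differentiation. All 3 groups carried the same Apc hairpin (shAPC in the titles) and came from organoids called AKP, a name the labels do not spell out; the labels used here give no allele, animal, age or organ of origin. The samples are labelled as technical replicates, so the p-values below measure only the spread between these samples. The question of the design was how expression changes as Apc is restored, and each gene was compared at 2 days against control, at 7 days against control and at 7 days against 2 days.

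Intestinal epithelium takes metals from food through transporters on its apical face and passes them to blood through others on its basolateral face. ZIP proteins, encoded by Slc39a genes, bring zinc into the cytosol, and ZnT proteins, encoded by Slc30a genes, move it out of the cytosol into vesicles, organelles or the outside. Iron enters through Slc11a2 and leaves through Slc40a1, copper enters through Slc31a1 and leaves by the Atp7 pumps, and Slc41a proteins carry magnesium. Of the 34 genes, 29 passed the filter on low counts and were tested, and 5 (Slc11a1, Slc30a3, Slc30a8, Slc39a2 and Slc39a12) did not pass it. Levels are given as CPM (counts-per-million), with library totals scaled by TMM factors, which bring libraries of unlike makeup to one scale. Fold changes came from edgeR's quasi-likelihood test, fitted on all 12535 genes that passed the filter, with Benjamini-Hochberg adjustment and a threshold of 0.05; each log2 fold change has its standard error after the ± sign.

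After 7 days most of the tested transporters stood higher than in control. At 7 days 19 of the 29 tested transporters rose and 5 fell against control, which is 82.8% called, while 82.3% of all 12535 tested genes were called (40.5% higher and 41.8% lower). At 2 days 5 rose and 2 fell, 24.1% against 23.7% of all genes (13.1% higher and 10.6% lower). At 7 days against 2 days 20 rose and 5 fell, 86.2% against 79.1% of all genes (39.2% higher and 39.9% lower). Slc30a10 and Slc41a3 passed the filter only through their 7-day samples, so a rise in them was fixed by their being tested at all. Among the other 27, 17 rose and 5 fell at 7 days against control and 18 rose and 5 fell against 2 days. The shares called were near the background in each comparison, and the split at 7 days lay on the higher side. The median log2 fold change of the 29 was 0.01 at 2 days and 0.42 at 7 days against control and 0.49 at 7 days against 2 days, beside -0.0039, -0.03 and -0.03 for all tested genes. Over the 27 without Slc30a10 and Slc41a3 these medians were 0.01, 0.42 and 0.47. The shares and medians of all genes were taken over all 12535 tested, without removing those that passed the filter through their 7-day samples alone. Rises of at least 2-fold at 7 days against control were called for 10 of the 29, or 8 of the 27 without those genes (22.3% of all genes), and falls of that size for 2 (19.6% of all genes). Against 2 days the same counts were 10, or 8 of 27 (19.3%), and 2 (16.2%), and at 2 days against control Slc30a2 was the single gene past 2-fold, as a fall (1.68% of all genes fell and 3.34% rose by that much). The 2-day count was the least stable of the 3. It was 4 without control replicate 2. The number of rises was 2 with control replicate 2 or 2-day replicate 2 left out, and 3 with control replicate 3, 2-day replicate 1, 2-day replicate 3 or 7-day replicate 2 left out; falls numbered 4 when 2-day replicate 2 was left out.

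**Figure D1:**
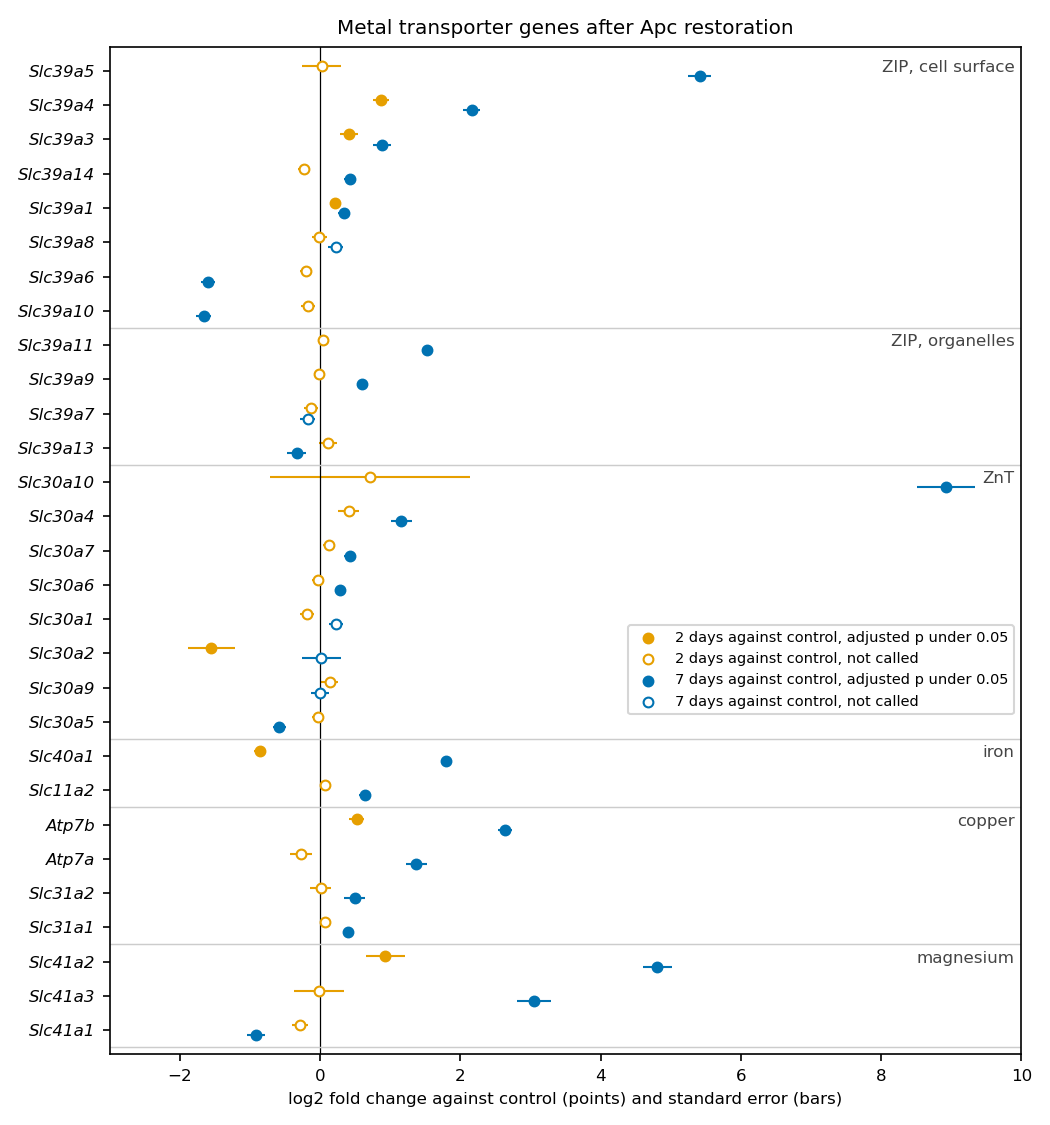
Log2 fold change against control of the 29 tested transporter genes, at 2 days (orange) and 7 days (blue); filled points had an adjusted p under 0.05 and bars are standard errors. At 2 days 5 genes rose and 2 fell, at 7 days 19 rose and 5 fell; the fitted value of Slc30a10 rests on 1 count in controls and is no measure of its size.

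Library totals ran from 24143589 to 32277040 counts. TMM factors were between 0.785 and 0.874 in the 7-day libraries and between 1.073 and 1.125 in the others. Dividing by library totals alone moved the median of all genes to -0.43 at 7 days against control and to -0.44 against 2 days. On that scale the transporters split 13 higher and 7 lower at 7 days against control and 12 higher and 8 lower against 2 days. The makeup of the cultures moved with the comparisons. The summed level of 11 enterocyte markers was 13.57 to 17.997 CPM in controls, 51.0 to 53.8 CPM in 2-day organoids and 15188 to 16153 CPM in 7-day organoids, and that of 7 goblet markers 47.4 to 53.2, 230.3 to 250.1 and 3365 to 4059 CPM. All 11 and all 7 had counts at 7 days, and Treh alone among them was at 0 in controls. Summed markers of epithelium were at 9715 to 12793, 14373 to 16445 and 26735 to 36437 CPM. Those of fibroblasts, immune cells and endothelium were each at or under 5.80 CPM in every sample, with Lum and Emcn at 0 counts in every sample. In bulk RNA fewer cells of a type and less RNA per cell cannot be told apart, and the part of these markers in the transporter results was not tested.

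Among the 10 ZIP genes whose proteins act mainly at the cell surface, 8 were tested. At 7 days 5 rose and 2 fell, and at 2 days 3 rose. That is 87.5% and 37.5% called, against 82.3% and 23.7% of all genes. Slc39a4 (ENSMUSG00000063354, GRCm38 chromosome 15, 76612383 to 76617384, minus strand) encodes the apical importer that takes up dietary zinc in enterocytes. Its level was 101, 97.6 and 80.0 CPM in controls, 173, 176 and 163 CPM in 2-day organoids and 484, 415 and 349 CPM in 7-day organoids. The 3 groups did not overlap, and the level was higher at each later time. Slc39a4 rose by 0.87 ± 0.11 on the log2 scale at 2 days against control (edgeR adjusted p = 4.6e-05) and by 2.16 ± 0.12, 4.47-fold, at 7 days (adjusted p = 1.5e-10).

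Slc39a5 (ENSMUSG00000039878, chromosome 10, 128395931 to 128401229, minus strand) encodes a zinc importer known from the basolateral face of enterocytes and from pancreas. Its level was 0.502, 0.373 and 0.462 CPM in controls, 0.582, 0.381 and 0.368 CPM in 2-day organoids and 19.8, 19.2 and 17.9 CPM in 7-day organoids. Controls and 2-day organoids overlapped near the bottom of the scale and all 7-day samples lay far above both. The rise was 42.7-fold at 7 days against control (log2 5.42 ± 0.16, edgeR adjusted p = 1.7e-13), and the change at 2 days was 0.02 ± 0.28 (adjusted p = 0.97). Slc39a5 therefore moved between 2 and 7 days, by 5.40 ± 0.16 (adjusted p = 2.4e-13), whereas Slc39a4 had already risen at 2 days.

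Slc39a14, whose protein also carries iron and manganese, stood at 125, 119 and 109 CPM in controls, 102, 109 and 89.6 CPM in 2-day organoids and 155, 164 and 153 CPM in 7-day organoids. All 7-day samples were above all others, while the lowest control and the highest 2-day sample were close together. The rise at 7 days against control was 0.42 ± 0.08 (edgeR adjusted p = 2.9e-04; 0.02 and not called under library totals alone) and the 2-day difference, -0.24 ± 0.08, did not pass the threshold (adjusted p = 0.055). It did pass in the DESeq2 Wald test (0.038) and without control replicate 3, 2-day replicate 2 or 7-day replicate 3. Slc39a1, a broadly expressed surface importer, averaged 101 ± 4.72 CPM in controls, 118 ± 2.32 CPM in 2-day organoids and 128 ± 9.16 CPM in 7-day organoids (SD, n = 3 each); it rose by 0.33 ± 0.08 at 7 days against control (adjusted p = 8.3e-04), a value that was -0.07 under library totals alone. Its 2-day rise of 0.22 ± 0.08 (adjusted p = 0.049) ended when any of 7 libraries was left out: each control, each 2-day sample or 7-day replicate 2. It also ended with no filter (adjusted p = 0.0788) or with DESeq2 size factors (0.0555). Slc39a3, another surface importer, averaged 10.9 ± 1.84, 14.5 ± 1.74 and 20.1 ± 2.06 CPM in controls, at 2 days and at 7 days. It rose by 0.41 ± 0.13 at 2 days (adjusted p = 0.034) and by 0.88 ± 0.13 at 7 days (adjusted p = 1.4e-05). The 2-day call of Slc39a3 depended on control replicates 2 and 3, 2-day replicates 1 and 2 and 7-day replicate 2, any of which left out ended it (adjusted p up to 0.126). Slc39a8, a zinc and manganese importer, averaged 37.3 ± 5.29, 37.1 ± 1.31 and 43.5 ± 6.01 CPM and was not called at either time (0.22 ± 0.11 at 7 days against control, adjusted p = 0.078). The 7-day difference of Slc39a8 passed with DESeq2 size factors (0.037), in the DESeq2 Wald test (0.0359) and without control replicate 3 or 7-day replicate 1.

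Slc39a6 and Slc39a10, which encode importers that pair with each other in a complex, were the 2 transporters with falls of at least 2-fold at 7 days against control. Slc39a6 (ENSMUSG00000024270, chromosome 18, 24579881 to 24603817, minus strand) was at 33.1, 34.2 and 34.0 CPM in controls, 28.1, 31.7 and 28.2 CPM in 2-day organoids and 11.5, 12.3 and 9.68 CPM in 7-day organoids. Slc39a10 (ENSMUSG00000025986, chromosome 1, 46807544 to 46892852, minus strand) was at 33.4, 34.0 and 39.7 CPM in controls, 33.1, 34.4 and 27.5 CPM in 2-day organoids and 10.7, 10.9 and 12.2 CPM in 7-day organoids. For both genes every 7-day sample lay below every other sample. Against control at 7 days Slc39a6 fell by 1.60 ± 0.10 on the log2 scale and Slc39a10 by 1.66 ± 0.11 (edgeR adjusted p = 6.5e-10 and 1.3e-09). Per kb of exon, the ratio of Slc39a6 to Slc39a10 was 1.42 ± 0.122 in controls, 1.40 ± 0.133 at 2 days and 1.49 ± 0.266 at 7 days (SD, n = 3 each), and the 7-day difference from control was within the spread (exact permutation test, two-sided, p = 0.6).

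The 4 ZIP genes whose proteins sit in organelle membranes had edgeR adjusted p-values of 0.40 to 0.87 at 2 days. At 7 days against control 2 rose and 1 fell, which is 75% called, against 82.3% of all genes. Slc39a11 (ENSMUSG00000041654, chromosome 11, 113244853 to 113650079, minus strand), an importer reported in Golgi and nucleus, was at 56.9, 56.5 and 54.5 CPM in controls, 57.6, 56.9 and 58.0 CPM in 2-day organoids and 171, 159 and 151 CPM in 7-day organoids. Control and 2-day samples overlapped within a narrow band, and the 7-day samples all stood well above it. The rise was 2.86-fold (log2 1.52 ± 0.07, edgeR adjusted p = 3.5e-11). Slc39a9, of the Golgi, averaged 62.3 ± 0.318, 61.5 ± 4.02 and 94.2 ± 1.78 CPM and rose by 0.59 ± 0.07 at 7 days (adjusted p = 1.6e-06); 459 bases of its exons overlap Erh on the opposite strand, and the libraries do not mark the strand. Slc39a13, of the early secretory pathway, averaged 5.47 ± 0.576, 5.92 ± 0.567 and 4.32 ± 0.488 CPM. Its fall of 0.34 ± 0.14 at 7 days (adjusted p = 0.032) had overlapping samples and did not pass when control replicate 1, control replicate 2, 7-day replicate 1 or 7-day replicate 3 was left out or DESeq2 was used (adjusted p = 0.0775), and 215 bases of its exons overlap Psmc3. Slc39a7, of the endoplasmic reticulum, averaged 17.9 ± 2.05, 16.4 ± 1.37 and 15.8 ± 0.753 CPM and was not called. It was called lower at 7 days against control with library totals alone (adjusted p = 9.65e-05), with upper-quartile factors (0.0189) and without control replicate 3 (0.036). Of the 2584 exon bases of Slc39a7, 2084 overlap Gm20427 on the same strand, a gene absent from the count table. How reads over those bases were counted is not known.

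**Figure D2:**
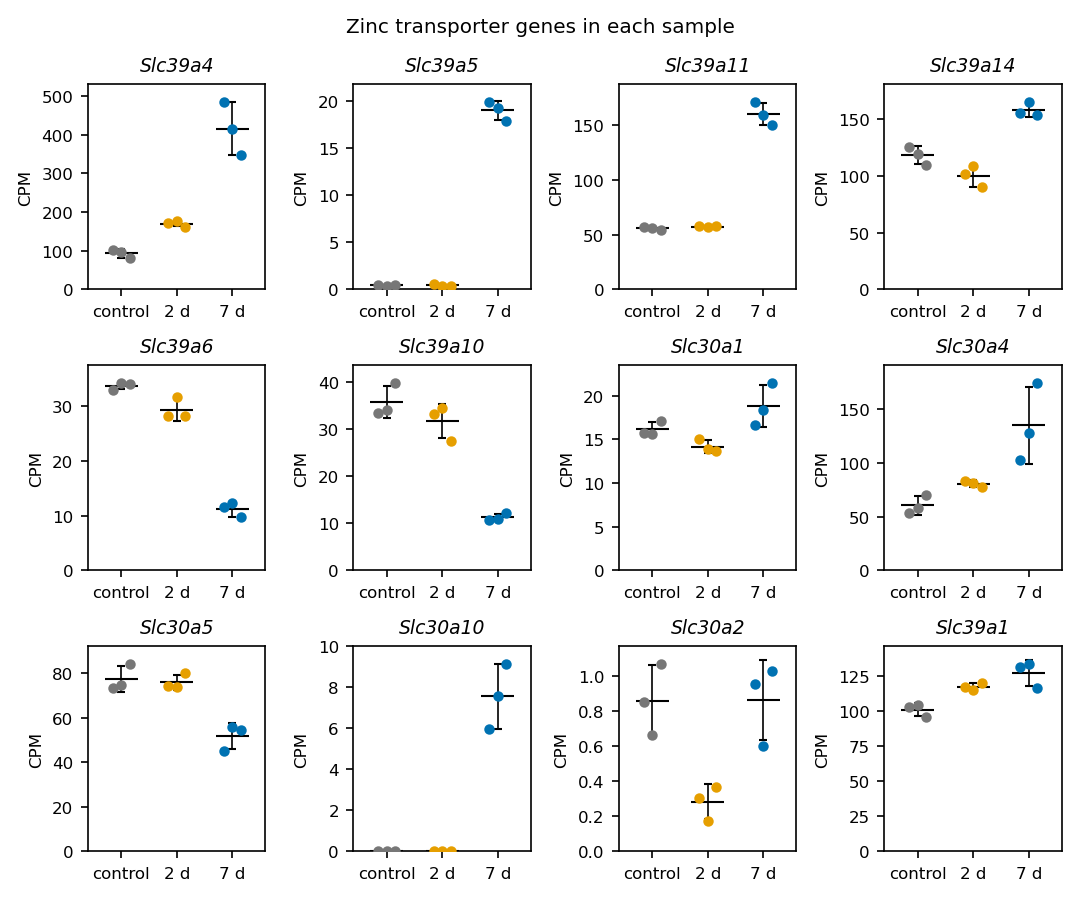
Level of 12 zinc transporter genes in each of the 9 samples, in CPM on a linear scale from 0; each point is a sample, the long bar is the mean of 3 and the short bars are the SD. All 7-day samples lay above control for Slc39a4, Slc39a5, Slc39a11, Slc39a14, Slc39a1, Slc30a4 and Slc30a10. They lay below control for Slc39a6, Slc39a10 and Slc30a5, while Slc30a2 was low at 2 days.

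Among the ZnT genes 8 of 10 were tested. At 7 days 4 rose, Slc30a10 among them, and 1 fell, and at 2 days 1 fell. That is 62.5% and 12.5% called, against 82.3% and 23.7% of all genes. Slc30a10 (ENSMUSG00000026614, chromosome 1, 185454848 to 185468762, plus strand) encodes a surface exporter best known for manganese. It had 0, 1 and 0 counts in controls, 1, 0 and 1 counts in 2-day organoids and 138, 202 and 249 counts in 7-day organoids, in which its level was 5.97, 7.59 and 9.13 CPM. The gene was nearly undetected before 7 days and present in all samples then. It was tested only because of those samples, so its values are given as a description. The ratio at 7 days against control was 679.9, with a 95% exact counting interval of 121.6 to 26899 (589 against 1 counts), and against 2 days 359.9 (99.2 to 2979, 589 against 2 counts); the intervals cover counting error only.

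Slc30a4 (ENSMUSG00000005802, chromosome 2, 122681233 to 122702663, minus strand), which loads zinc into vesicles, was at 53.4, 58.5 and 70.6 CPM in controls, 83.6, 81.1 and 77.4 CPM in 2-day organoids and 103, 128 and 174 CPM in 7-day organoids. The groups did not overlap, and the 7-day samples were spread more widely than the others. It rose by 1.15 ± 0.15 at 7 days against control (edgeR adjusted p = 3.6e-06), and the 2-day value of 0.41 ± 0.15 did not pass (adjusted p = 0.062). It did pass with no filter (8.76e-04), in the DESeq2 Wald test (0.0347), with the 2 groups alone (0.00309) and without control replicate 3, 7-day replicate 1 or 7-day replicate 3. Slc30a1, the zinc exporter of the plasma membrane, was at 15.7, 15.6 and 17.04 CPM in controls, 15.04, 13.8 and 13.6 CPM in 2-day organoids and 16.7, 18.4 and 21.4 CPM in 7-day organoids. Its 7-day samples overlapped those of control, and the difference, 0.23 ± 0.10, did not pass (adjusted p = 0.051). It did pass with DESeq2 size factors (0.0236), in the DESeq2 Wald test (0.0244), with a mean of at least 5 CPM (0.0385) and without control replicate 3 or 7-day replicate 1. Slc30a1 rose by 0.41 ± 0.10 at 7 days against 2 days (adjusted p = 0.0018), a value that was 0 to 2 decimals under library totals alone.

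Slc30a5 and Slc30a6, whose proteins form a heterodimer that supplies zinc to enzymes of the early secretory pathway, were called in opposite directions at 7 days. Slc30a5 averaged 77.5 ± 5.73, 75.9 ± 3.48 and 51.8 ± 5.95 CPM in controls, at 2 days and at 7 days and fell by 0.58 ± 0.09 at 7 days against control (edgeR adjusted p = 2.8e-05). Slc30a6 averaged 22.02 ± 1.41, 21.4 ± 0.455 and 26.8 ± 0.432 CPM and rose by 0.29 ± 0.08 (adjusted p = 0.0043), but this value was -0.11 under library totals alone. The ratio of Slc30a6 to Slc30a5 per kb, which no scaling of libraries alters, was 0.678 ± 0.0881 in controls, 0.670 ± 0.0194 at 2 days and 1.24 ± 0.171 at 7 days (SD, n = 3 each). The 7-day samples were all above control, with an exact permutation p of 0.1, the smallest that 3 against 3 samples allow. Slc30a7, of the Golgi, averaged 35.0 ± 3.36, 38.2 ± 0.490 and 47.0 ± 0.996 CPM and rose by 0.42 ± 0.08 at 7 days (adjusted p = 2.1e-04), a call lost under library totals alone. Slc30a9, linked to mitochondrial zinc, averaged 39.6 ± 6.71, 43.6 ± 1.96 and 39.5 ± 5.96 CPM and was not called. Slc30a2, which fills secretory granules with zinc, was low throughout. It averaged 0.858 ± 0.203 CPM in controls, 0.283 ± 0.0998 CPM in 2-day organoids and 0.860 ± 0.227 CPM in 7-day organoids. It fell by 1.55 ± 0.33 at 2 days against control (adjusted p = 0.0030) and did not differ detectably at 7 days (0.02 ± 0.28, adjusted p = 0.96). Zinc-filled granules are a trait of Paneth cells in the gut, and the summed level of 9 Paneth markers was 46.2 to 50.3 CPM in controls, 33.3 to 44.4 CPM in 2-day organoids and 86.0 to 100.04 CPM in 7-day organoids, with Defa24, Defa30, Defa17 and Pla2g2a at 0 counts at 7 days. Most of the sum at 7 days was Nupr1, also a stress gene, which averaged 14.1, 30.7 and 86.7 CPM in controls, at 2 days and at 7 days. Of the 5 tested markers 4 (Lyz1, Itln1, Mmp7 and Pla2g2a) were lower and Nupr1 alone higher at both times against control. The part of those markers in the level of Slc30a2 was not tested.

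Zinc-responsive genes are controlled by MTF1, which binds short metal response elements, so the promoters of the exporter that is the textbook MTF1 target (Slc30a1) and of the pair with the largest fold rises among zinc transporters (Slc30a10, Slc39a5) are shown. They are RefSeq sequence (GRCm38.p6) upstream of the start site, 5′ to 3′, without the bases inside the annotated gene, with matches to the core TGCACNC or TGCGCNC on either strand in capitals. They lie at chr1:191906531-191906766 (plus strand), chr1:185454598-185454847 (plus strand) and chr10:128401230-128401474 (minus strand).
Slc30a1: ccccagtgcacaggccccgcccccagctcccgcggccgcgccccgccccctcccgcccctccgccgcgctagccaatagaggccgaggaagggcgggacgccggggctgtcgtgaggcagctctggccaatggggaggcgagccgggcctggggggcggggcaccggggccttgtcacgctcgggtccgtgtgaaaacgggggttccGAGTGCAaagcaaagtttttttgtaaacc
Slc30a10: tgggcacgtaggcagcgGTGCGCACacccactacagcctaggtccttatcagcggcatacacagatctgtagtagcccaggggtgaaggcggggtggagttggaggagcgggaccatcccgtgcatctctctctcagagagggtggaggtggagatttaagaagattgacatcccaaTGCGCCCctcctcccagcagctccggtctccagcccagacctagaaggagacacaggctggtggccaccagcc
Slc39a5: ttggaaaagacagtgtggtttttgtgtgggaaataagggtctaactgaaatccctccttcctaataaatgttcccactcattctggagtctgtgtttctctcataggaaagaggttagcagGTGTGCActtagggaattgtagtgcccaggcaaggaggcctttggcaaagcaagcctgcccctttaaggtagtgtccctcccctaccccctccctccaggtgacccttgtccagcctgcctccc
The core matched 3 times in the Slc30a10 window, where a pair of matches on opposite strands overlap, and 1 time in each of the others; a second RefSeq window of Slc39a5, not printed, held no match. Over the 250 bases upstream, 17 of 33 windows of the transporters (28 of 34 genes had an entry) held the core, and 21.4% of all 32851 promoter windows did. The genes without an entry, not covered by this count, were Slc39a4, Slc39a6, Slc39a14, Slc40a1, Slc11a2 and Slc30a8. The median GC content was 61.2% in the transporter windows and 52.4% in all windows, so the windows differ in base composition too. The TCF/LEF core CTTTGAT, searched on both strands because Apc acts on beta-catenin and TCF, matched in none of the 33 windows, beside 3.21% of all windows. The CDX core TTTATNG matched in 2 of the 33 (9.81% of all) and the HNF4 core CAAAGTCCA in 1 (0.384% of all). A match marks letters only, not binding.

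Within the ZIP family the level of Slc39a4, as a share of the family's counts per kb of exon, was 21.8 ± 1.67% in controls, 33.04 ± 0.533% at 2 days and 45.9 ± 3.04% at 7 days (SD, n = 3 each). The share of Slc39a1 was 31.3 ± 0.407%, 30.0 ± 1.36% and 18.6 ± 0.896%. Slc39a4 thus took the place of Slc39a1 as the ZIP gene with the highest level per kb. Within the ZnT family Slc30a4 held 28.7 ± 1.98%, 35.2 ± 1.38% and 46.0 ± 5.13%, and Slc30a5 27.6 ± 0.312%, 24.9 ± 1.07% and 13.5 ± 1.32%. In each of these 4 shares the 7-day samples did not overlap control (exact permutation test, two-sided, p = 0.1, the smallest possible). The summed level of the ZIP family per kb was 456 ± 9.82, 552 ± 27.6 and 656 ± 29.4 TPM (counts per kb scaled to an equal total in each sample) in controls, at 2 days and at 7 days. That of the ZnT family was 129 ± 13.4, 139 ± 2.28 and 121 ± 25.4 TPM, whose groups overlapped on this scale. TPM uses no TMM factors, unlike the CPM levels, and the 2 scales can differ in direction. Slc39a1, called higher at 7 days, averaged 143 TPM in controls and 122 TPM at 7 days. The family sums were not taken on the TMM scale. The ratio of Slc39a4 to Slc30a1, surface importer to surface exporter, was 9.79 ± 1.63, 20.3 ± 1.05 and 38.2 ± 10.8.

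**Figure D3:**
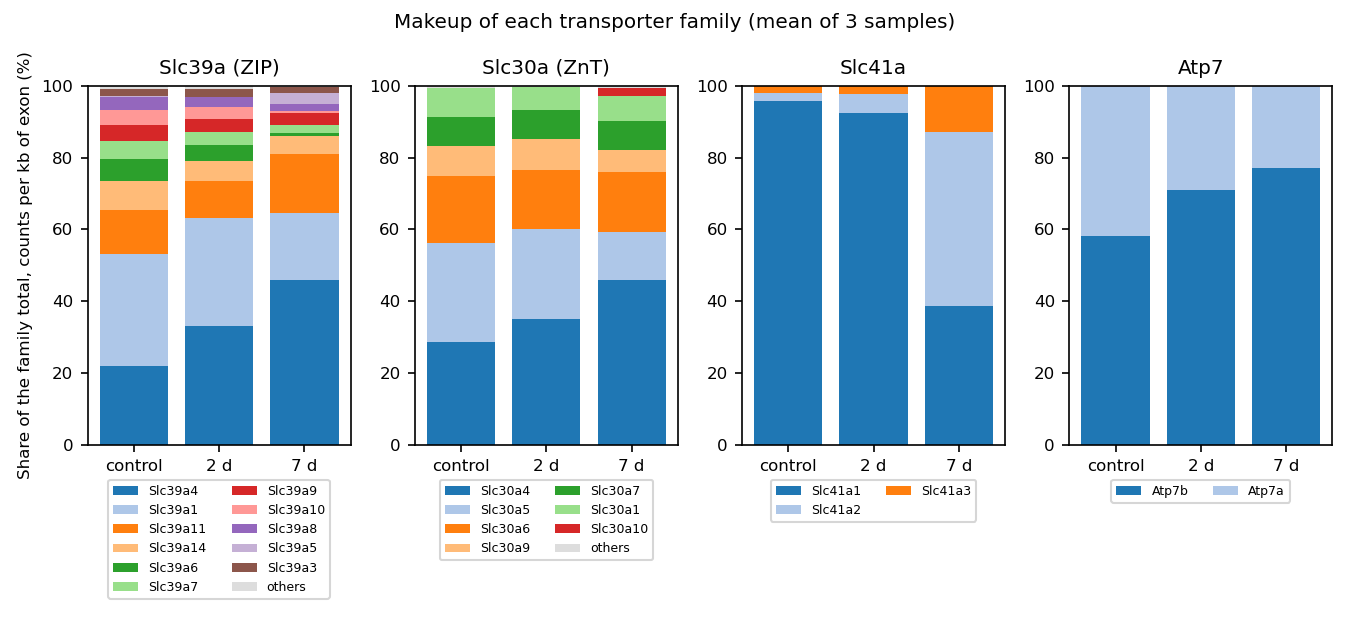
Makeup of the Slc39a, Slc30a, Slc41a and Atp7 families in each group, as the mean share of each gene in the family's counts per kb of exon (%, y axis from 0 to 100). The share of Slc39a4 was 21.8, 33.04 and 45.9% in controls, at 2 days and at 7 days, and that of Slc41a2 2.25, 5.09 and 48.5%.

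Of 5 tested genes of zinc sensing and buffering, 4 rose at 7 days, and 1 rose and 2 fell at 2 days against control, with medians of 0.57 and -0.19; 80% and 60% were called, against 82.3% and 23.7% of all genes. The 2 that fell at 2 days were the metallothioneins, small proteins that bind zinc and copper. Mt1 was at 93.1, 95.02 and 75.6 CPM in controls, 55.0, 50.1 and 56.6 CPM in 2-day organoids and 128, 139 and 123 CPM in 7-day organoids, and Mt2 averaged 7.18 ± 1.04, 5.02 ± 0.377 and 17.6 ± 1.00 CPM. In Mt1 the 2-day samples lay below all controls and the 7-day samples above them. In TPM, without TMM factors, Mt1 averaged 235 ± 23.0 in controls and 236 ± 14.5 at 7 days, so its 7-day rise depends on the scaling. Mt1 fell by 0.71 ± 0.09 at 2 days and rose by 0.57 ± 0.09 at 7 days against control (edgeR adjusted p = 5.1e-05 and 4.2e-05), and Mt2 fell by 0.52 ± 0.12 and rose by 1.30 ± 0.11 (adjusted p = 0.0067 and 4.0e-08). Mtf1, the zinc sensor itself, averaged 31.8 ± 0.486, 31.5 ± 3.15 and 45.7 ± 1.81 CPM and rose by 0.52 ± 0.08 at 7 days (adjusted p = 3.7e-05). Gpr39, a zinc-sensing receptor, averaged 11.1 ± 0.335, 14.4 ± 1.11 and 31.2 ± 2.55 CPM and rose by 0.37 ± 0.10 at 2 days and 1.49 ± 0.09 at 7 days (adjusted p = 0.011 and 8.8e-10).

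Both tested iron transporters rose at 7 days, and the exporter had fallen at 2 days. Of all tested genes 40.5% were called higher at 7 days and 10.6% lower at 2 days. Slc40a1 (ferroportin, ENSMUSG00000025993, chromosome 1, 45908068 to 45926523, minus strand) is the iron exporter of the basolateral membrane. Its level was 23.2, 21.7 and 22.3 CPM in controls, 12.0, 12.2 and 12.7 CPM in 2-day organoids and 71.4, 80.7 and 81.6 CPM in 7-day organoids. The 2-day samples lay below every control and the 7-day samples above every control, with narrow spreads. Slc40a1 fell by 0.86 ± 0.09 at 2 days (edgeR adjusted p = 2.4e-06), rose by 1.80 ± 0.08 at 7 days against control (adjusted p = 1.7e-11) and rose 6.33-fold at 7 days against 2 days (log2 2.66 ± 0.09, adjusted p = 5.1e-13). In the edgeR test with all samples and the group alone it was the single transporter of the 29 called in opposite directions at 2 and at 7 days against control. In the DESeq2 Wald test Slc39a14 was called lower at 2 days too.

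Slc11a2 (DMT1, ENSMUSG00000023030, chromosome 15, 100387898 to 100425072, minus strand) is the apical iron importer. It was at 62.5, 60.3 and 56.5 CPM in controls, 59.0, 65.9 and 63.5 CPM in 2-day organoids and 96.8, 96.7 and 84.8 CPM in 7-day organoids. Control and 2-day samples overlapped, and the 7-day samples were above both. It rose by 0.63 ± 0.08 at 7 days against control (edgeR adjusted p = 2.9e-06) and the 2-day difference was 0.07 ± 0.08 (adjusted p = 0.57). The ratio of Slc40a1 to Slc11a2 per kb, exporter to importer, was 0.265 ± 0.0125 in controls, 0.139 ± 0.00707 at 2 days and 0.597 ± 0.0802 at 7 days (SD, n = 3 each), with no overlap between groups (exact permutation p = 0.1 for each pair).

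The iron responsive element is an RNA hairpin bound by iron regulatory proteins: in the 5′ UTR of ferroportin and ferritin it governs translation, and in the 3′ UTR of the transferrin receptor it governs the stability of the mRNA. The elements are shown because Slc40a1 alone among the 34 transporters matched a search for them. They are from GENCODE M21 transcripts (GRCm38), 5′ to 3′, 27 bases each, in capitals the loop letters CAGTG and the base after them.
Slc40a1, 5′ UTR: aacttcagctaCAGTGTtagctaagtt
Fth1, 5′ UTR: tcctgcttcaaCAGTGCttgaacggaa
Ftl1, 5′ UTR: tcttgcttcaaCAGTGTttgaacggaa
Tfrc, 3′ UTR, example: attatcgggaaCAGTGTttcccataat
The search was for C, 5 bases, CAGTG, then A, C or T, and 5 bases that pair with the earlier 5, on the sense strand; 1 of 34 transporters (Slc40a1) and 121 of 20873 genes (0.58%) held it in a UTR, 23 genes in the 5′ UTR (0.11%) and 98 in the 3′ UTR (0.47%). Tfrc held 4 such elements. The pattern required all 5 bases to pair, so it would miss an element with a mismatch or an extra bulge. The lack of a match, as for Slc11a2, therefore does not show that a gene has no element. At the RNA level the 3 other genes shown moved as follows. Fth1 and Ftl1, the ferritin chains that store iron, averaged 592 ± 49.5 and 742 ± 105 CPM in controls, 659 ± 40.3 and 786 ± 57.1 CPM in 2-day organoids and 1548 ± 199.9 and 1629 ± 310.4 CPM in 7-day organoids, and rose by 1.39 ± 0.11 and 1.13 ± 0.13 at 7 days against control (edgeR adjusted p = 7.6e-09 and 1.3e-06). Tfrc, which takes up transferrin-bound iron, averaged 215 ± 13.1, 181 ± 16.7 and 87.8 ± 8.23 CPM and fell by 1.29 ± 0.09 at 7 days (adjusted p = 3.5e-09).

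Of 22 other tested genes of iron handling, 12 rose and 5 fell at 7 days, and 4 rose and 1 fell at 2 days against control, with medians of 0.36 and -0.09; 77.3% and 22.7% were called, against 82.3% and 23.7% of all genes. Cybrd1, the apical ferric reductase that works with Slc11a2, was at 0.811, 0.746 and 0.675 CPM in controls, 0.367, 0.485 and 0.522 CPM in 2-day organoids and 42.7, 33.1 and 34.8 CPM in 7-day organoids. It rose 49.3-fold at 7 days against control (log2 5.62 ± 0.15, edgeR adjusted p = 5.7e-14), and its 2-day value of -0.70 ± 0.27 did not pass (adjusted p = 0.081). Heph, the ferroxidase that works with Slc40a1, averaged 32.8 ± 1.45, 39.3 ± 2.95 and 227 ± 15.9 CPM and rose 6.90-fold at 7 days (log2 2.79 ± 0.09, adjusted p = 2.3e-13). Epas1, the hypoxia factor known to drive Slc11a2, Cybrd1 and Slc40a1 in mouse gut, averaged 13.3 ± 1.14, 22.8 ± 2.28 and 90.5 ± 7.42 CPM. Epas1 RNA rose by 0.78 ± 0.10 at 2 days and 2.77 ± 0.10 at 7 days (edgeR adjusted p = 4.2e-05 and 1.7e-12). The part of Epas1 in the levels of these genes was not tested. Ncoa4, which delivers ferritin for breakdown, averaged 171 ± 6.90, 196 ± 5.56 and 506 ± 21.3 CPM and rose by 1.56 ± 0.07 at 7 days (adjusted p = 3.3e-11). Steap2, a metal reductase, rose by 0.52 ± 0.09 at 2 days (adjusted p = 8.7e-04).

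**Figure D4:**
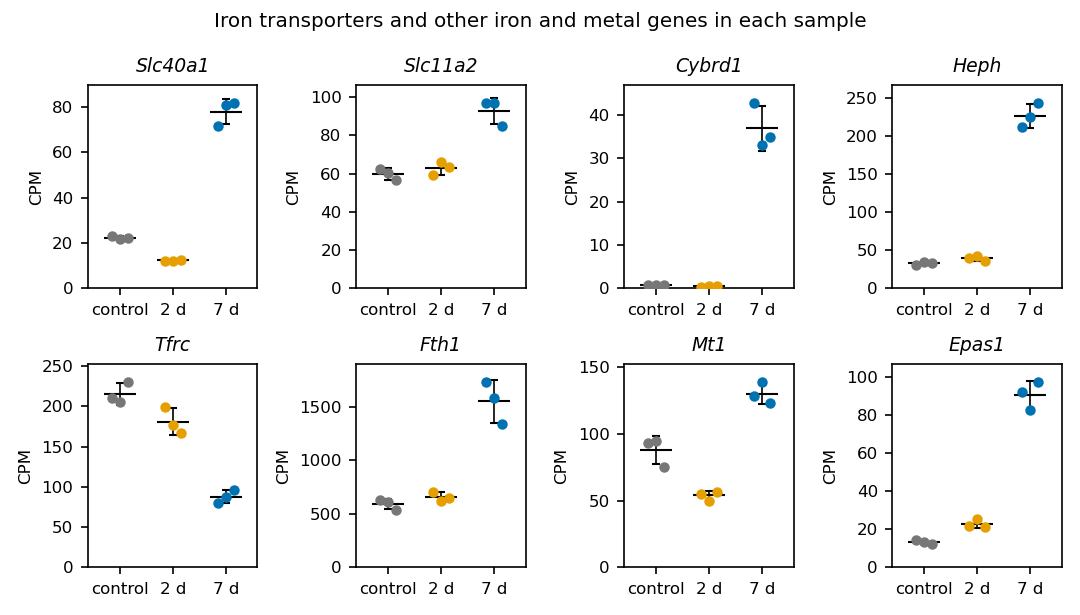
Level of the iron transporters Slc40a1 and Slc11a2, 5 other iron genes and Mt1 in each sample, in CPM on a linear scale from 0; each point is a sample, the long bar is the mean of 3 and the short bars are the SD. Slc40a1 and Mt1 were lowest at 2 days and highest at 7 days, Slc11a2, Cybrd1, Heph, Fth1 and Epas1 were highest at 7 days, and Tfrc was lowest at 7 days.

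All 4 copper transporters rose at 7 days against control, and Atp7b rose at 2 days too. Of all tested genes 40.5% were called higher at 7 days and 13.1% at 2 days. The rises of Slc31a1 and Slc31a2 were not called under library totals alone. Atp7b (ENSMUSG00000006567, chromosome 8, 21992785 to 22060305, minus strand) is the copper pump mutated in Wilson disease and best known from liver. It was at 9.96, 9.99 and 8.77 CPM in controls, 13.4, 15.7 and 12.2 CPM in 2-day organoids and 58.8, 59.1 and 60.9 CPM in 7-day organoids. The 3 groups were apart, and the 7-day samples lay within a narrow range. Atp7b rose by 0.52 ± 0.10 at 2 days (edgeR adjusted p = 0.0018) and 6.22-fold at 7 days against control (log2 2.64 ± 0.10, adjusted p = 2.7e-12).

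Atp7a (ENSMUSG00000033792, chromosome X, 106027276 to 106124926, plus strand), the pump that exports copper across the basolateral face of enterocytes and is mutated in Menkes disease, was at 8.50, 9.10 and 9.94 CPM in controls, 7.96, 9.21 and 5.71 CPM in 2-day organoids and 22.6, 21.2 and 27.5 CPM in 7-day organoids. Control and 2-day samples overlapped and the 7-day samples were above both. It rose by 1.37 ± 0.15 at 7 days against control (edgeR adjusted p = 3.9e-07), and the 2-day difference of -0.27 ± 0.15 did not pass (adjusted p = 0.23). Per kb, Atp7b made up 58.3 ± 3.64% of the sum of both pumps in controls, 71.0 ± 2.79% at 2 days and 77.2 ± 2.10% at 7 days (SD, n = 3 each), without overlap between groups (exact permutation p = 0.1 for each pair). The RNA of the pump best known from liver was the more abundant per kb in every sample.

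Slc31a1 (CTR1, chromosome 4, 62360727 to 62391769, plus strand), the surface copper importer, was at 72.7, 76.3 and 78.8 CPM in controls, 77.0, 80.8 and 82.2 CPM in 2-day organoids and 99.96, 99.59 and 101.5 CPM in 7-day organoids. The change was small beside that of the pumps, with all 7-day samples above the others. It rose by 0.40 ± 0.07 at 7 days against control (edgeR adjusted p = 6.7e-05), but by 0.00027 under library totals alone. Slc31a2, a related protein of internal membranes, averaged 3.78 ± 0.162, 3.79 ± 0.648 and 5.29 ± 0.818 CPM and rose by 0.49 ± 0.15 (adjusted p = 0.0082), a call lost under library totals alone (0.09). Of 12 tested copper chaperones and copper enzymes, 5 rose and 3 fell at 7 days and 1 rose at 2 days, with medians of -0.04 and 0.01; 66.7% and 8.33% were called, against 82.3% and 23.7% of all genes. Atox1, which hands copper to the Atp7 pumps, averaged 43.6 ± 4.04, 43.1 ± 2.81 and 77.6 ± 7.25 CPM and rose by 0.83 ± 0.09 at 7 days (adjusted p = 6.9e-07). Ccs, the chaperone of superoxide dismutase, rose by 1.15 ± 0.12, and Sod1, its client, by 1.16 ± 0.09 (adjusted p = 2.0e-07 and 8.9e-09). Cox19, of the mitochondrial copper route, rose by 0.97 ± 0.08 (adjusted p = 3.0e-08). The gene that rose at 2 days was Pam, a copper enzyme of peptide amidation (0.45 ± 0.07, adjusted p = 1.7e-04), and Loxl2, a copper amine oxidase, had -0.43 ± 0.15 (adjusted p = 0.055).

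**Figure D5:**
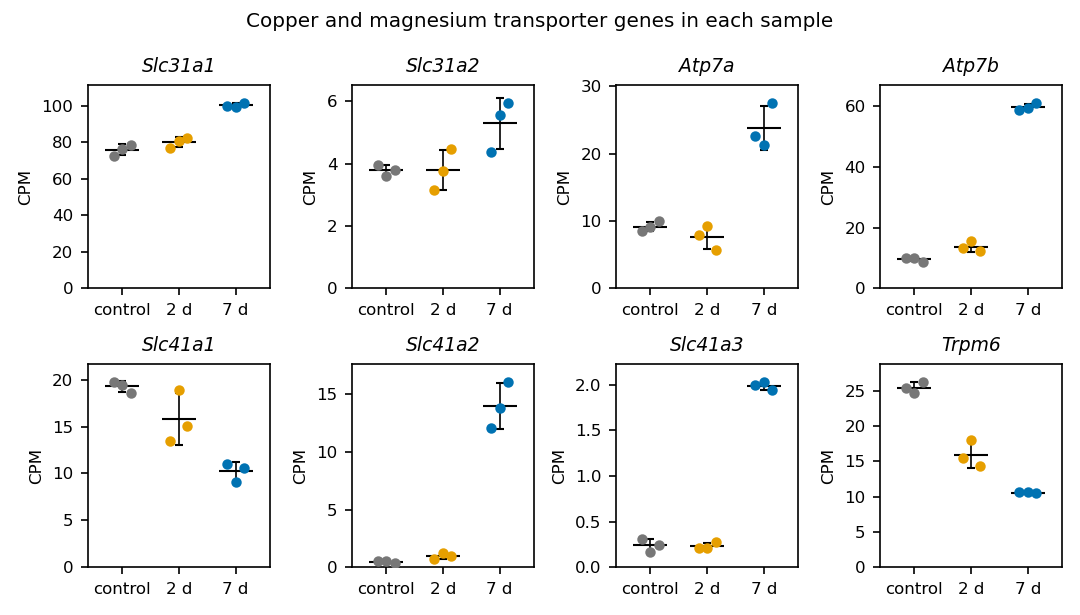
Level of the 4 copper transporters, the 3 Slc41a genes and the magnesium channel gene Trpm6 in each sample, in CPM on a linear scale from 0; each point is a sample, the long bar is the mean of 3 and the short bars are the SD. All 7-day samples lay above control for the copper genes, Slc41a2 and Slc41a3, and below it for Slc41a1 and Trpm6.

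The 3 Slc41a magnesium transporters differed in direction at 7 days: Slc41a2 rose and Slc41a1 fell against control, and Slc41a3 was detected mainly then. Slc41a2 (ENSMUSG00000034591, chromosome 10, 83230848 to 83337882, minus strand) was at 0.579, 0.517 and 0.391 CPM in controls, 0.704, 1.21 and 0.951 CPM in 2-day organoids and 12.1, 13.8 and 16.1 CPM in 7-day organoids. No groups overlapped. The rise at 7 days against control was 28.1-fold (log2 4.81 ± 0.20, edgeR adjusted p = 6.7e-12). The 2-day rise, 0.93 ± 0.28 (adjusted p = 0.027), did not pass when control replicate 2, control replicate 3, 2-day replicate 2 or 2-day replicate 3 was left out (adjusted p up to 0.108), nor in limma-voom (0.0538).

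Slc41a1 (ENSMUSG00000013275, chromosome 1, 131827493 to 131848865, plus strand), a magnesium exporter of the plasma membrane, was at 19.7, 19.5 and 18.6 CPM in controls, 13.5, 18.9 and 15.1 CPM in 2-day organoids and 10.99, 9.05 and 10.6 CPM in 7-day organoids. The 7-day samples were below all others, and 2-day replicate 2 lay among the controls. It fell by 0.92 ± 0.12 at 7 days (edgeR adjusted p = 4.9e-06), and the 2-day value of -0.29 ± 0.12 did not pass (adjusted p = 0.091), though it did without 2-day replicate 2 (0.0125). Slc41a3, linked to magnesium efflux from mitochondria, averaged 0.243 ± 0.0685, 0.233 ± 0.0378 and 1.99 ± 0.0426 CPM. Its counts were 8, 6 and 7 in controls, 7, 6 and 9 in 2-day organoids and 46, 54 and 53 in 7-day organoids, and the fold at 7 days against control was 8.26. It passed the filter only through the 7-day samples, so this is a description and no test is given. Per kb, Slc41a1 held 95.7 ± 0.685% of the 3 genes' sum in controls, 92.6 ± 0.637% at 2 days and 38.8 ± 3.84% at 7 days, while Slc41a2 held 2.25 ± 0.364%, 5.09 ± 0.544% and 48.5 ± 4.21%. The sum itself was 13.7 ± 0.123, 11.6 ± 2.33 and 12.2 ± 1.54 TPM, and its groups overlapped on this scale. TPM uses no TMM factors, unlike the CPM levels above, and the sum was not taken on the TMM scale.

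Of 18 other tested genes of magnesium handling, 8 rose and 7 fell at 7 days and 3 rose and 3 fell at 2 days against control, with medians of -0.08 and 0.06; 83.3% and 33.3% were called, against 82.3% and 23.7% of all genes. Nipal4, of the NIPA magnesium transporter family, averaged 7.03 ± 0.936 CPM in controls, 1.76 ± 0.143 CPM in 2-day organoids and 0.183 ± 0.0331 CPM in 7-day organoids. It fell by 2.00 ± 0.14 at 2 days and by 5.24 ± 0.23 at 7 days (edgeR adjusted p = 1.0e-07 and 1.0e-11). Its relative Nipal1 averaged 29.3 ± 3.98, 52.5 ± 0.903 and 92.3 ± 7.65 CPM and rose by 0.84 ± 0.10 and 1.65 ± 0.10 (adjusted p = 1.2e-05 and 3.5e-10). Cnnm4, which extrudes magnesium across the basolateral face of gut epithelium, averaged 53.9 ± 1.08, 83.8 ± 6.21 and 137 ± 3.73 CPM and rose by 0.64 ± 0.07 and 1.35 ± 0.08 (adjusted p = 1.4e-05 and 1.9e-10). Trpm6, the apical magnesium channel of gut and kidney, averaged 25.4 ± 0.762, 15.9 ± 1.89 and 10.6 ± 0.0884 CPM and fell by 0.67 ± 0.09 and 1.26 ± 0.10 (adjusted p = 7.3e-05 and 8.7e-09).

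Compared with one another per kb within a group, Slc39a1 had the highest level in controls (143 ± 3.31 TPM), before Slc39a4 (99.7 ± 9.65), Slc31a1 (59.3 ± 3.96) and Slc39a11 (55.6 ± 0.278 TPM), the last 2 of which overlapped between samples. At 2 days Slc39a4 (183 ± 11.5 TPM) stood before Slc39a1 (166 ± 2.16 TPM), and at 7 days Slc39a4 (302 ± 33.3 TPM) before Slc39a1 (122 ± 4.43), Slc39a11 (108 ± 1.70), Slc30a4 (56.4 ± 18.2) and Slc31a1 (53.1 ± 3.39 TPM), of which the last 2 overlapped.

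The 5 genes below the filter were at the edge of detection. Slc30a8, the zinc transporter of insulin granules, had 0 counts in all 9 samples. Slc39a12, known from brain, had 0 counts over the 3 controls, 7 over the 2-day samples and 40 over the 7-day samples, which is at least 15.4-fold higher at 7 days than in control when control is set at 3 counts over the group. Slc39a2, known from skin, had 2 counts over the 7-day samples and 15 over the controls (ratio 0.154, 95% exact counting interval 0.0171 to 0.662), and 151 bases of its exons overlap Mettl17. Slc11a1, the iron transporter of phagocytes, and Slc30a3, that of synaptic vesicles for zinc, had at most 5 counts over any group.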

How the data were processed

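Poly(A) RNA of 9 organoid samples was sequenced from libraries made with a kit that does not mark the strand, per the labels' protocols. The deposited table holds unnormalized read counts as whole numbers; the tools were STAR 2.7.0e, featureCounts and DESeq2 with builds mm10 and GRCm38, per the submitters' processing notes. Which annotation release and strand setting the authors counted with is not given in sources used here. Of 21253 gene IDs, 21236 were matched to GENCODE M21, which gave symbols, coordinates and exon lengths. Without strand, reads of overlapping genes cannot be told apart. Of the transporters, Slc39a13, Slc39a2 and Slc39a9 share exon bases with another gene of the table. Slc11a2, Slc30a1, Slc30a4, Slc30a7, Slc30a10 (533 bases) and Slc39a7 share exon bases with genes absent from the table. How reads over those bases were counted is not known.

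Counts were filtered with filterByExpr, scaled with TMM and tested in edgeR 4.0.16 (R 4.3.3; glmQLFit, glmQLFTest) with all 9 samples and the group alone (common dispersion 0.00723), adjusted over 12535 genes; the SE is the absolute log2 fold change over the square root of F. The script was tested on simulated data. Levels per kb use the union of exons. Shares and ratios were tested by two-sided exact permutation over samples. Replicate pairs of a group differed by a chi-square per degree of freedom of 4.24 to 38.3, so each sample was counted. Intervals for low counts cover counting error only.

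The transporters, the related lists and the rule for named genes were chosen with earlier results of these data known. Values per sample were given for transporters called with a change of at least 2-fold and at least 5 CPM in the higher group, plus 10 named for their role; of each related list, the 4 genes with the smallest p at 7 days and the 2 at 2 days were named, and Fth1, Ftl1 and Tfrc for their elements. Ptp4a1, whose symbol 2 IDs share, was left out. Alternatives were other scalings and filters, the DESeq2 1.42.0 Wald test, limma-voom (limma 3.58.1), the replicate number as a block, 2 groups alone and each sample left out.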

Additional observations from a re-analysis of the deposited data

Results flagged for a closer look

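These 3 results stood out because the gene was called in opposite directions at 2 and at 7 days against control and was called at 7 days against 2 days too. The rule was applied to the transporters and the related lists, and the share of all genes that meet it was not counted. In all 3, every 2-day sample lay below every control and every 7-day sample above every control in CPM with TMM factors. In TPM, which uses none, Mt1 averaged 235 ± 23.0 in controls and 236 ± 14.5 at 7 days (SD). The 7-day rise of Mt1 against control therefore depends on the scaling. Slc40a1 averaged 8.30 TPM in controls and 19.6 TPM at 7 days, and Mt2 40.6 and 67.8 TPM. Slc40a1, the iron exporter, fell by 0.86 on the log2 scale at 2 days and rose by 1.80 at 7 days against control, and its difference at 7 days against 2 days was 2.66 ± 0.09 (edgeR adjusted p = 5.1e-13). The metallothionein Mt1 fell by 0.71 and rose by 0.57, with a difference of 1.27 ± 0.09 (adjusted p = 7.3e-09), and Mt2 fell by 0.52 and rose by 1.30, with a difference of 1.81 ± 0.12 (adjusted p = 1.5e-09). For Slc40a1 the log2 differences from control were -0.89 to -0.83 at 2 days and 1.77 to 1.86 at 7 days when each sample was left out in turn. The 2 comparisons with control share the control samples.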

How the results depend on the processing

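Of 87 differences (29 transporters in 3 comparisons), 50 kept their direction and their side of the threshold under every other setting that gave a value and with each of 9 samples left out. The 87 include the 7-day differences of Slc30a10 and Slc41a3, whose rise was fixed by the filter, so their stability is no result. In all 9 settings 72 had a value. The other 15, of 5 genes (Slc30a2, Slc30a10, Slc31a2, Slc41a2 and Slc41a3), had none with a mean of at least 5 CPM and some of them none with the 2 groups alone. Dividing by library totals alone gave 12 higher and 8 lower at 7 days against 2 days, and turned 5 called differences round: at 7 days against control Slc30a6 (-0.11) and Slc39a1 (-0.070), and at 7 days against 2 days Slc30a6 (-0.093), Slc30a7 (-0.12) and Slc31a1 (-0.090). It also turned uncalled ones: Slc30a1 (-0.17), Slc30a2 (-0.38) and Slc39a8 (-0.18) at 7 days against control, Slc39a1 (-0.30) and Slc39a8 (-0.18) at 7 days against 2 days, and Slc39a8 (0.0030) at 2 days. Upper-quartile factors turned Slc39a8 (0.011), Slc39a9 (0.00016) and Slc41a3 (0.0017) at 2 days, Slc30a2 (-0.083) at 7 days against control and Slc39a1 (-0.0082) at 7 days against 2 days. Others that turned were uncalled: Slc31a2 (-0.0067) and Slc39a5 (-0.0092) at 2 days under limma-voom, Slc30a2 at 7 days against control with the replicate block (-0.0092) or the 2 groups alone (-0.0068), and Slc30a9 there with DESeq2 size factors (0.0362), its Wald test (0.0358) or a mean of at least 5 CPM (0.016). That filter left 1 fall at 2 days. With each sample left out, the 2-day counts were 4 to 9 called, 2 to 7 higher and 2 to 4 lower; the ranges of differences that turned at 2 days were -0.067 to 0.033 for Slc30a5, -0.081 to 0.016 for Slc30a6, -0.13 to 0.13 for Slc31a2, -0.23 to 0.15 for Slc39a5, -0.090 to 0.10 for Slc39a8, -0.073 to 0.020 for Slc39a9 and -0.24 to 0.18 for Slc41a3, at 7 days against control -0.17 to 0.23 for Slc30a2 and -0.11 to 0.13 for Slc30a9, and at 7 days against 2 days -0.10 to 0.015 for Slc39a7. With the replicate block Slc30a4 (adjusted p = 0.00614) and Slc39a14 (0.0079) also passed at 2 days and Slc30a1 (0.0323) and Slc39a8 (0.0106) at 7 days against control. The block gave 9 called at 2 days, 26 at 7 days against control and 26 against 2 days; same-numbered samples correlated by -0.13 to 0.48 in their deviations, and not every pair passed 0.1, so the numbers were not taken as pairing. The cause was not tested in any of these cases. Depth limits the 5 untested genes and those under 1 CPM.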
